A study of Mus musculus with 6 samples.

Results

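Argonaute (Ago) footprints on the mRNAs of ubiquitin enzymes were examined in bone-marrow-derived macrophages. A gene was included when its symbol began with Ube, Ubr, Usp, Rnf, Trim, Fbxo, Fbxw, Fbxl or Cul and a digit, or was Itch, Nedd4 or Wwp1. A footprint was included when it overlapped such a gene on the gene's own strand. This gave 131 of the 6270 footprints of the study, on 67 genes. The annotation holds 333 genes that match these names, and the other 266, Nedd4 among them, carried no footprint in the table. Of all annotated protein-coding symbols, 9.93% carried a footprint, against 20.1% of the genes with these names. These shares are not fully alike. Each footprint counted for a single gene, a gene with these names taking precedence, and the 333 were not limited to protein-coding genes.

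The libraries came from Ago HITS-CLIP, which sequences RNA cross-linked to Ago and pulled down with the antibody 2A8. There were 3 libraries of wild-type (WT) C57BL/6 mice and 3 of littermates with an Apobec1-/- genotype (KO), aged 6 to 12 weeks. Marrow cells of both genotypes were cultured with M-CSF, at 20 ng/mL and then at 40 ng/mL in the replaced medium, and matured for 7 days. APOBEC1 deaminates cytidine to uridine in mRNA, and the series asks how Ago binding differs without it. The authors gave each footprint 1 Ago occupancy per genotype, the footprint signal divided by the RNA-Seq level of its transcript, and a count of the WT and of the KO libraries in which it was found. With 1 combined value per genotype, no difference below has a replicate check, a test or a p-value. The depth of the libraries is unknown. Of the 8 annotated macrophage marker genes reported here, 6 carried footprints (Emr1, Itgam, Csf1r, Fcgr1, Cd14 and Lyz2), with a summed occupancy of 3.87 in KO and 2.90 in WT, most of it from Fcgr1. Without Fcgr1 the sums were 1.12 and 1.25, and 3 of the 6 genes were higher in KO and 3 lower. None of the 20 markers looked for of T cells, B cells, neutrophils and stromal cells carried any. Of all annotated protein-coding symbols 9.93% carried a footprint, and occupancy is divided by transcript level. These marker values therefore do not measure which cells the cultures held. In such bulk cultures, fewer cells of a type and less RNA per cell cannot be told apart.

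Ubiquitin is attached to proteins by a relay of enzymes. An E1 activates it, an E2 (the Ube2 family) carries it, and an E3 ligase places it on a chosen protein. RING-type E3s such as the Rnf and Trim proteins bring E2 and substrate together, whereas HECT-type E3s such as Itch, Wwp1 and Ube3a take the ubiquitin over first. Cullins are scaffolds of multi-subunit ligases, and F-box proteins are the substrate adaptors of the Cul1 ligase. Deubiquitinases of the Usp family remove the tag. In macrophages this system is known for setting the strength of innate immune signalling and for renewing surface receptors. miRNAs guide Ago mostly to 3′ UTRs, through pairing of miRNA bases 2 to 8, the seed.

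The sites below show what a seed match under these footprints looks like, and the values of their footprints are given with each family. They are 7 of the 9 matches to bases 2 to 8 that are followed by an A (8-nt sites), on mouse build mm9 and read 5′ to 3′ on the strand of the gene. Each miRNA name stands for the family that shares its seed. Capitals mark the match, and the coordinates are those of the capitals.
Fbxo11, miR-26 (chr17:88390853-88390860, minus strand): atttcaagcaaatcttattgTACTTGAAtg
Usp15, miR-26 (chr10:122550410-122550417, minus strand): tcagattttaacttgtgcagTACTTGAAgt
Cul3, miR-23 (chr1:80263493-80263500, minus strand): tctttacagttcctcgggaaAATGTGAAtg
Cul3, miR-221 (chr1:80263734-80263741, minus strand): ggatcgcaaagtatacacatATGTAGCAta
Rnf167, miR-19 (chr11:70464752-70464759, plus strand): tacctctggtgaccgtcctaTTTGCACAaa
Ubr4, miR-103 (chr4:139045228-139045235, plus strand): tgcactcatttcccccacggATGCTGCAtt
Rnf220, miR-30 (chr4:116944564-116944571, minus strand): catgtaatatagactgtgtaTGTTTACAat

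The next sites match bases 2 to 8 without the following A (7-nt sites) and lie under the member footprints with the highest KO value, the highest WT value of a footprint with a seed match, and the only footprint with a match held by 3 KO libraries.
Fbxo11, miR-148 (chr17:88390619-88390625, minus strand): tgagacttcctaggaagggaTGCACTGta
Rnf111, miR-15 (chr9:70273981-70273987, minus strand): tccctaacccaggtttTGCTGCTgt
Usp8, miR-130 (chr2:126584776-126584782, plus strand): aatgtatatgtacatatttaTTGCACTgt

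The mature miRNAs that share these seeds, from RefSeq (GRCm38.p6), are given with bases 2 to 8 in capitals.
miR-26a-5p: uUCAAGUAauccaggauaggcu
miR-23a-3p: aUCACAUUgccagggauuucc
miR-221-3p: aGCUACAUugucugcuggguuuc
miR-19b-3p: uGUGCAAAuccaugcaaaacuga
miR-103-3p: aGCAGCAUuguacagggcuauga
miR-30a-5p: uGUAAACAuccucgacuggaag
miR-148a-3p: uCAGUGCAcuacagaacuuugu
miR-16-5p: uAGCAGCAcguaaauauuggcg
miR-130a-3p: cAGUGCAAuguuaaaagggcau

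Most footprints lay in 3′ UTRs, 125 of 131 (95.4%), as did 96.7% of all footprints of the table. The others were 5 in coding sequence (3 of Rnf44, 1 of Ube3a and 1 of Usp34) and 1 in the 5′ UTR of Trim17. The 131 footprints were 63 to 201 nt long, and their median of 72 nt is also that of all footprints. For the 119 whose centre lay in the 3′ UTR of a coding transcript, 4 equal stretches of the UTR, counted from the coding end, held 34, 28, 26 and 31 footprints. They were thus spread along the whole 3′ UTR. Neighbouring footprints overlapped in 5 places, among them Trim8, Ube2b, Ube2d2 and Usp34, by at most 12 nt. They are counted separately here, and whether they are separate sites was not tested. Another gene covers 10 of the footprints on the same strand, so their assignment is uncertain. These are the 3 of Rnf8, in an annotated 3′ UTR of Ftsjd2, the 1 of Trim17, in that of the histone gene Hist3h2a, the 3 of Ube2b and 3 of the 4 of Rnf149.

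Median occupancy of the 131 footprints was 0.471 in KO and 0.484 in WT, beside 0.377 and 0.406 over all footprints. Of the 131, 71 were at or above the table median of mean occupancy, 0.425. Of the 131, 11 were among the top 10% of all footprints. The footprints of these mRNAs were thus spread over the middle of the range of the table. The sources used here do not say whether the ratio also accounts for footprint length, so levels of different genes are set side by side as listed.

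**Figure D1:**
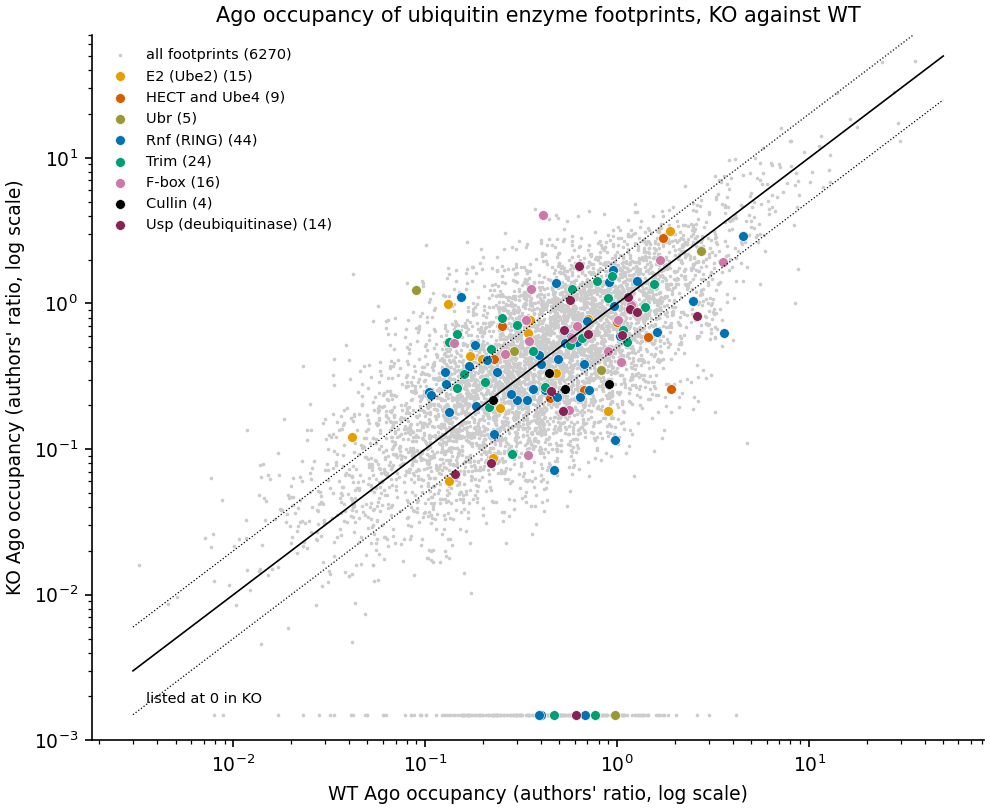
Ago occupancy in KO (vertical) against WT (horizontal) on log axes, 1 point per footprint, with all 6270 in grey and the 131 of ubiquitin enzymes coloured by family. The solid line marks equal values and the dotted lines a 2-fold difference. The 9 coloured points at the bottom are listed at 0 in KO and are drawn there because a log axis has no 0.

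Over the 131 footprints the median log2 ratio of KO over WT was -0.19, beside -0.04 over all 6270, and 56 of them were higher in KO. That is 42.7%, against 48.7% of all footprints. A ratio of at least 2-fold higher in KO was found for 27 members (20.6%; 18.9% of all footprints) and of at least 2-fold lower for 35 (26.7%; 24.2% of all), together 47.3% beside 43.1% of all. The lower ones include 9 members listed at 0 in KO (6.87%; 4.63% of all), among them footprints of Ube2f, Itch, Ubr3, Rnf13, Trim26, Trim34a and Usp8. The shares past 2-fold are near those of the whole table. By gene, with occupancy summed over footprints, 30 genes were higher in KO (44.8%; 47.8% of all genes) and 37 lower. At least 2-fold higher were 7 genes (10.4%; 11.7% of all) and at least 2-fold lower 12 (17.9%; 17.9% of all).

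**Figure D2:**
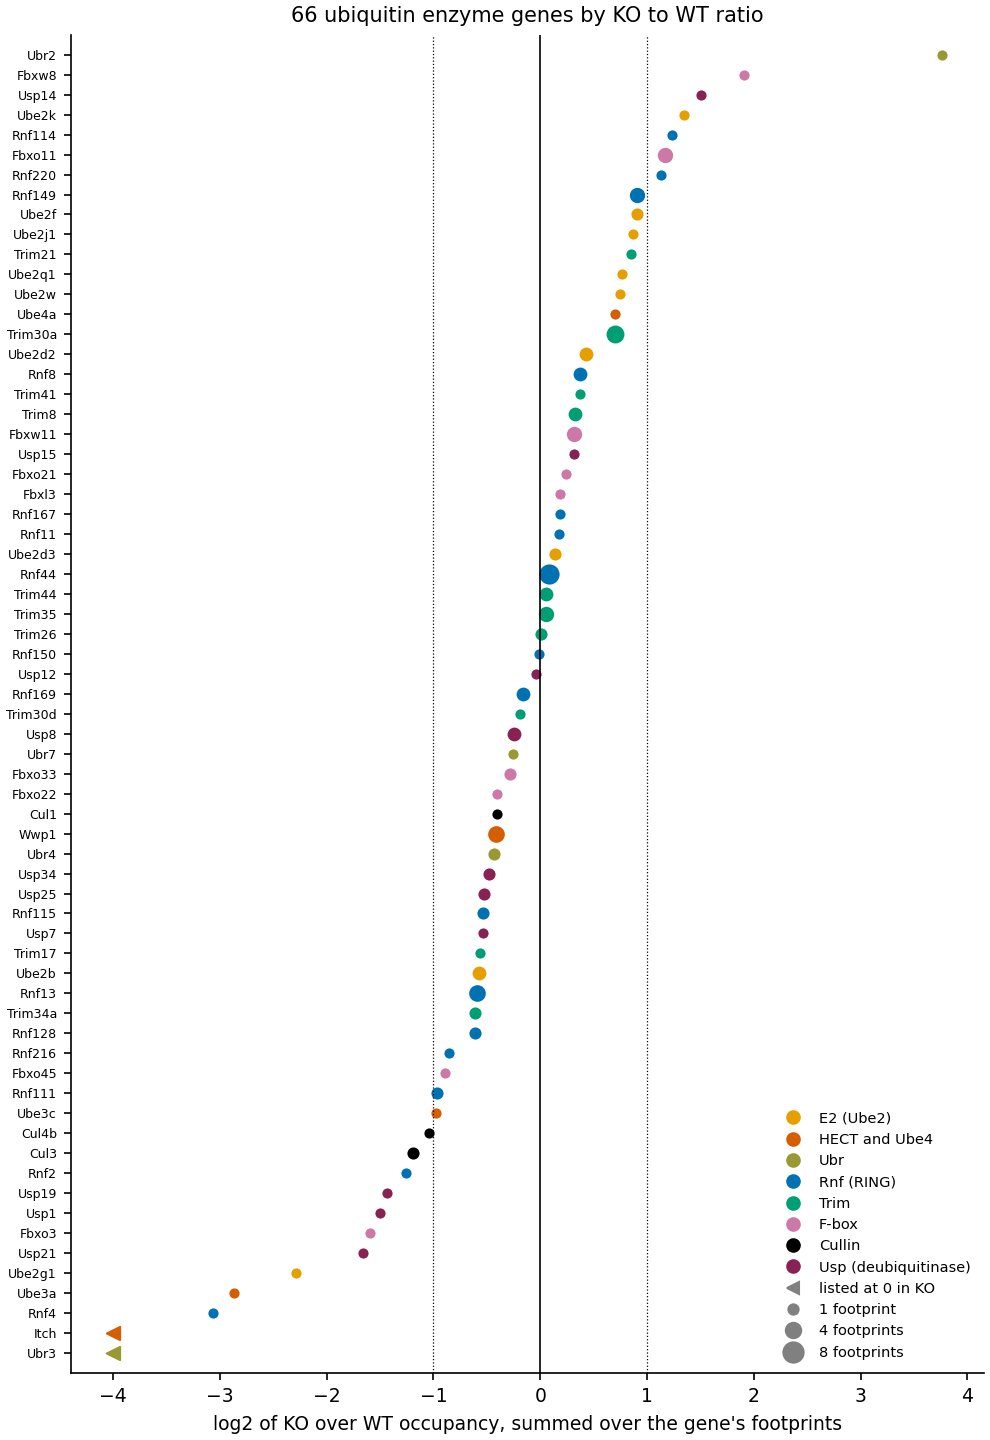
Log2 of KO over WT occupancy, summed over the footprints of 66 of the 67 genes, with colour for the family and point size for the number of footprints. The dotted lines mark 2-fold. Ubr2 stood highest at 3.76. Itch and Ubr3 are listed at 0 in KO and are drawn as triangles at the left edge, without a value.

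The libraries held these footprints unevenly. At least 2 WT libraries held 126 of the 131 (96.2%; 94.9% of all footprints), and at least 2 KO libraries held 38 (29.0%; 40.1% of all). No KO library held 45 of them (34.4%; 27.9% of all). All 6 libraries held only the footprints of Ubr7 and Fbxo21 (1.53%; 5.89% of all). The table admits a footprint through at least 2 libraries of either genotype, and 93 members entered through WT alone (71.0%; 59.9% of all footprints) and 5 through KO alone (3.82%; 5.12% of all). More KO than WT libraries held 10 members (7.63%; 11.5% of all).

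The ratio moved with the number of KO libraries. Its median was -1.26 in the 45 footprints that no KO library held, -0.10 in the 48 held by 1, 0.85 in the 30 held by 2 and 0.82 in the 8 held by 3. Over all footprints the same medians were -1.32, -0.04, 0.55 and 0.53. Of the 35 members at least 2-fold lower in KO, 28 were held by no KO library and none by at least 2. Of the 27 at least 2-fold higher, 17 were held by at least 2 KO libraries and none by 0. In the whole table, under 2 KO libraries held 1408 of the 1518 footprints at least 2-fold lower and 375 of the 1184 at least 2-fold higher. The KO occupancy and the count of KO libraries come from the same libraries and are not independent of each other. Among the 33 members held by at least 2 libraries of both genotypes, the median ratio was 0.84, beside 0.42 over the 2196 such footprints of the table, and 25 of the 33 were higher in KO (75.8%; 68.5% of the 2196). That set leaves out by construction the footprints that few KO libraries held.

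**Figure D3:**
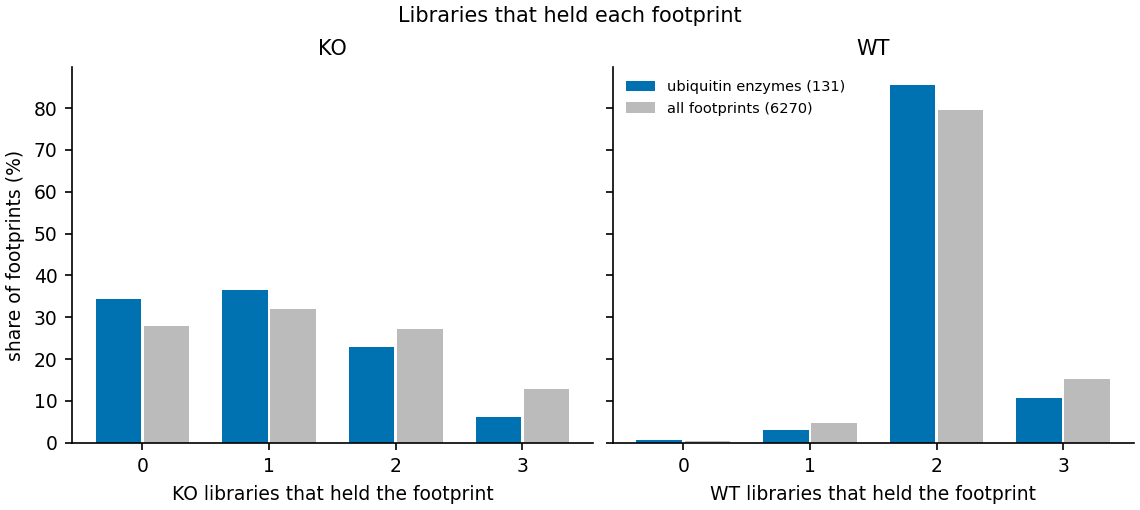
Share of footprints, in percent, by the number of KO libraries (left) and WT libraries (right) that held them, for the 131 footprints of ubiquitin enzymes and for all 6270. The bars at 0 and 1 KO libraries are higher for the ubiquitin enzymes, and those at 2 and 3 are lower.

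Each family below had 4 to 44 footprints. Over all footprints, 48.7% were higher in KO, 18.9% at least 2-fold higher and 24.2% at least 2-fold lower. Over all genes, 47.8% were higher by sum. The E2 enzymes carried 15 footprints on 9 genes, 9 of them higher in KO and 6 lower, with 5 and 4 past 2-fold. By gene, 7 of the 9 were higher in KO. Ube2w, which tags the amino end of proteins, had the strongest E2 footprint, 3.16 in KO and 1.88 in WT (chromosome 1, 16561114 to 16561184, minus strand, 3′ UTR). It was held by 2 libraries of each genotype, and its log2 ratio was 0.75. Ube2k, an E2 that builds ubiquitin chains, had 0.437 in KO and 0.172 in WT, with 1 KO and 2 WT libraries. Ube2g1, an E2 that works with cullin ligases, was the lowest gene of the family, with 0.183 in KO and 0.900 in WT and no KO library. The footprints of Ube2f, the E2 of the ubiquitin-like protein NEDD8, differed in direction within 1 3′ UTR. The one at 93182114 to 93182190 of chromosome 1 had 0.994 in KO and 0.132 in WT (log2 2.90). The one at 93182313 to 93182420 was listed at 0 in KO and had 0.399 in WT. The first held a 7-nt match to miR-30 and the second 1 to miR-27.

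Ube2d2 and Ube2d3, E2s that serve many E3s, differed by less than 2-fold in their sums. Ube2d2 had 1.75 in KO and 1.30 in WT over 3 footprints, and Ube2d3 had 0.748 and 0.678 over 2. Ube2j1, an E2 of the endoplasmic reticulum, had 0.627 in KO and 0.343 in WT, although no KO library held its footprint.

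The HECT ligases and the chain-extending Ube4a carried 9 footprints on 5 genes, 3 higher and 6 lower in KO. Ube4a had the strongest of them, 2.81 in KO and 1.73 in WT (chromosome 9, 44732643 to 44732705, minus strand, 3′ UTR), and was the 1 gene of the 5 that was higher. Ube3a, the ligase whose human gene is linked to Angelman syndrome, had 0.259 in KO and 1.90 in WT (log2 -2.87). Its footprint lay in annotated coding sequence (chromosome 7, 66543831 to 66543896, plus strand) and no KO library held it. Itch, a ligase that restrains immune signalling, was listed at 0 in KO and had 0.765 in WT with 2 libraries. Wwp1 had 5 footprints that alternated along the 3′ UTR, with log2 ratios of -0.41, 0.85, -1.39, 1.47 and -1.30 from the coding end outwards. Its sum was 2.70 in KO and 3.60 in WT.

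The Ubr genes encode ligases of which several recognise the amino ends of proteins. Ubr2 had the highest ratio of the 131 footprints, 1.23 in KO and 0.0892 in WT (log2 3.76; chromosome 17, 47066027 to 47066091, minus strand, 3′ UTR). All 3 KO libraries and 1 WT library held it. Ubr7, a ligase of histone H2B, had 2.28 in KO and 2.72 in WT in all 6 libraries (log2 -0.25). Ubr3 was listed at 0 in KO and had 0.974 in WT. The giant ligase Ubr4 had 1 footprint higher (0.473 in KO, 0.289 in WT) and 1 lower (0.350 and 0.826). The higher one holds the miR-103 site printed above.

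The Rnf genes were the largest group, with 44 footprints on 17 genes, 18 higher and 26 lower in KO, and 8 and 11 past 2-fold. Rnf44 had the most footprints, 8, of which 4 were higher and 4 lower. Its sums were 4.25 in KO and 4.01 in WT. A coding-sequence footprint (chromosome 13, 54784132 to 54784227, minus strand) had 1.10 in KO and 0.153 in WT, whereas a 3′ UTR footprint (54782544 to 54782611) had 0.0714 and 0.471. Rnf111, a ligase of TGF-β and SUMO signalling also named Arkadia, was likewise split. The footprint with the miR-15 site had 0.628 in KO and 3.60 in WT, with 1 KO and 3 WT libraries, and the other had 1.70 in KO and 0.948 in WT.

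Rnf4, a ligase of SUMO-tagged proteins, had the lowest ratio among members above 0 in KO, 0.116 in KO and 0.979 in WT (log2 -3.06; chromosome 5, 34694656 to 34694732, plus strand). Rnf2, the catalytic subunit of a Polycomb complex, had 1.04 and 2.48 with no KO library. Rnf149 had 3 of 4 footprints higher in KO, the strongest at 1.38 in KO and 0.479 in WT, held by 3 KO and 2 WT libraries. Rnf13, a membrane ligase of endosomes and lysosomes, had 2 footprints higher and 3 lower, with 1 of the latter listed at 0 in KO, and a sum of 0.863 in KO and 1.30 in WT. Rnf220, with the miR-30 site printed above, had 0.282 in KO and 0.128 in WT, and Rnf167, with the miR-19 site, had 0.445 and 0.392. In both, 1 KO library and 2 WT libraries held the footprint. Rnf114 was the 1 member held by KO libraries alone, 2 of them, with 0.247 in KO and 0.104 in WT.

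Trim proteins are RING ligases of which many are induced by interferon. They carried 24 footprints on 10 genes, 13 higher and 11 lower in KO. By sum, 7 of the 10 genes were higher, beside 47.8% of all genes, and none by 2-fold. Among the 7, Trim26, Trim35 and Trim44 were nearly equal in both genotypes, with log2 ratios of 0.004, 0.051 and 0.054. Trim30a, a restraint on Toll-like receptor signalling, had 4 of 6 footprints higher and a sum of 3.51 in KO and 2.16 in WT. Its strongest footprint (chromosome 7, 111559347 to 111559412, minus strand) had 1.53 in KO and 0.945 in WT with 2 libraries of each genotype. The 1 at 111558312 to 111558380, with a 7-nt match to miR-155, had 0.706 and 0.301. Trim21, a cytosolic antibody receptor, had 1.42 in KO and 0.788 in WT. Trim30d had the highest mean of the family, 1.35 in KO and 1.55 in WT, although no KO library held it. Trim30a and Trim30d are related copies, and the placing of reads that such copies share was not given in the sources used here. Trim26 and Trim34a each had 1 footprint listed at 0 in KO (0.469 and 0.768 in WT) and 1 higher in KO. Trim35 had 2 footprints higher and 2 lower, and a sum of 2.22 in KO and 2.14 in WT.

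The F-box proteins carried 16 footprints on 9 genes, 8 higher and 8 lower in KO. Fbxo11, an adaptor that marks the transcription factor BCL6 for destruction, had the highest KO value of the 131. Its footprint at 88390609 to 88390679 of chromosome 17 (minus strand, 3′ UTR) had 4.08 in KO and 0.413 in WT (log2 3.30), with 2 KO libraries and 1 WT library, and holds the miR-148 site. The neighbour with the miR-26 site had 0.393 in KO and 1.04 in WT. Of the other two, the one nearest the coding end was higher in KO (1.27 and 0.356) and the one farthest from it lower (0.974 and 1.18). Fbxo45 had 1.92 in KO and 3.58 in WT with 2 KO and 3 WT libraries. Fbxo21 had 1.99 and 1.68 in all 6 libraries (chromosome 5, 118458462 to 118458536, plus strand). Fbxw11, a receptor for phosphorylated inhibitors of NF-κB and for β-catenin, had 0.769 in KO and 0.334 in WT at its strongest difference upwards, and 0.0918 and 0.345 at its strongest downwards.

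All 4 footprints of the 3 cullins were lower in KO, as were 51.3% of all footprints. The smallest difference was a log2 ratio of -0.06, at Cul3. No more than 1 KO library held any of the 4, as for 59.9% of all footprints. Cul1, the scaffold that binds F-box adaptors, had 0.333 in KO and 0.442 in WT. Cul3, the scaffold for BTB-domain adaptors, had 0.279 and 0.907 at the footprint with the miR-23 site and 0.216 and 0.226 at the one with the miR-221 site. The latter is centred 8 nt past the coding sequence. Cul4b had 0.259 and 0.537.

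The deubiquitinases carried 14 footprints on 10 genes, 3 higher in KO (21.4%; 48.7% of all footprints) and 11 lower (78.6%; 51.3% of all). Past 2-fold were 1 higher (7.14%; 18.9% of all) and 5 lower (35.7%; 24.2% of all). Their median log2 ratio was -0.67, beside -0.04 over all footprints. Yet their median occupancy was 0.638 in KO and 0.622 in WT, so the 2 medians were nearly equal. No KO library held 9 of the 14, beside 27.9% of all footprints. Their median G+C content was 38.3%, beside 42.9% over all footprints. Usp14, which trims chains at the proteasome, was highest, with 1.81 in KO and 0.635 in WT and 2 libraries of each genotype (chromosome 18, 9995602 to 9995672, minus strand). Usp21 had 0.826 in KO and 2.61 in WT, with no KO and 3 WT libraries, and its footprint was the strongest of the family. Usp1, which acts in DNA repair, had 0.183 and 0.523, and Usp7, which stabilises the p53 regulator MDM2, had 0.874 and 1.27. Usp15, with the miR-26 site, had 0.661 and 0.531 and no KO library. Usp8, which acts on endosomes, had a footprint of 1.05 in KO and 0.571 in WT in 3 KO and 2 WT libraries. That footprint holds the miR-130 site and, shifted by 1 base, a match to miR-148. Another Usp8 footprint was listed at 0 in KO and had 0.609 in WT, and the remaining one had 0.0671 and 0.143.

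Rnf128 and Usp25 have been reported as targets of C-to-U editing by APOBEC1 in mouse intestine. No editing was measured here. Rnf128, also named GRAIL, had 0.259 in KO and 0.365 in WT (chromosome X, 136206921 to 136207015), and 0.255 and 0.421 farther out (136207578 to 136207640). Usp25 had 0.609 and 1.06 (chromosome 16, 77115926 to 77115988), and 0.616 and 0.703 farther out (77116310 to 77116380). All 4 footprints were lower in KO by less than 2-fold, and at most 1 KO library held any of them. Their G+C content was 25.3% and 34.9% in Rnf128 and 47.6% and 33.8% in Usp25.

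Footprints of 1 gene often went both ways. Among the 28 genes with at least 2 footprints, 23 had some higher and some lower in KO (82.1%; 72.8% of such genes in the table), 5 had all lower (17.9%; 16.8%) and none had all higher (10.4% of such genes in the table). The 5 were Cul3, Rnf115, Rnf128, Usp25 and Usp34. Footprints of 1 gene lie on the same transcripts and are not replicates of each other.

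**Figure D4:**
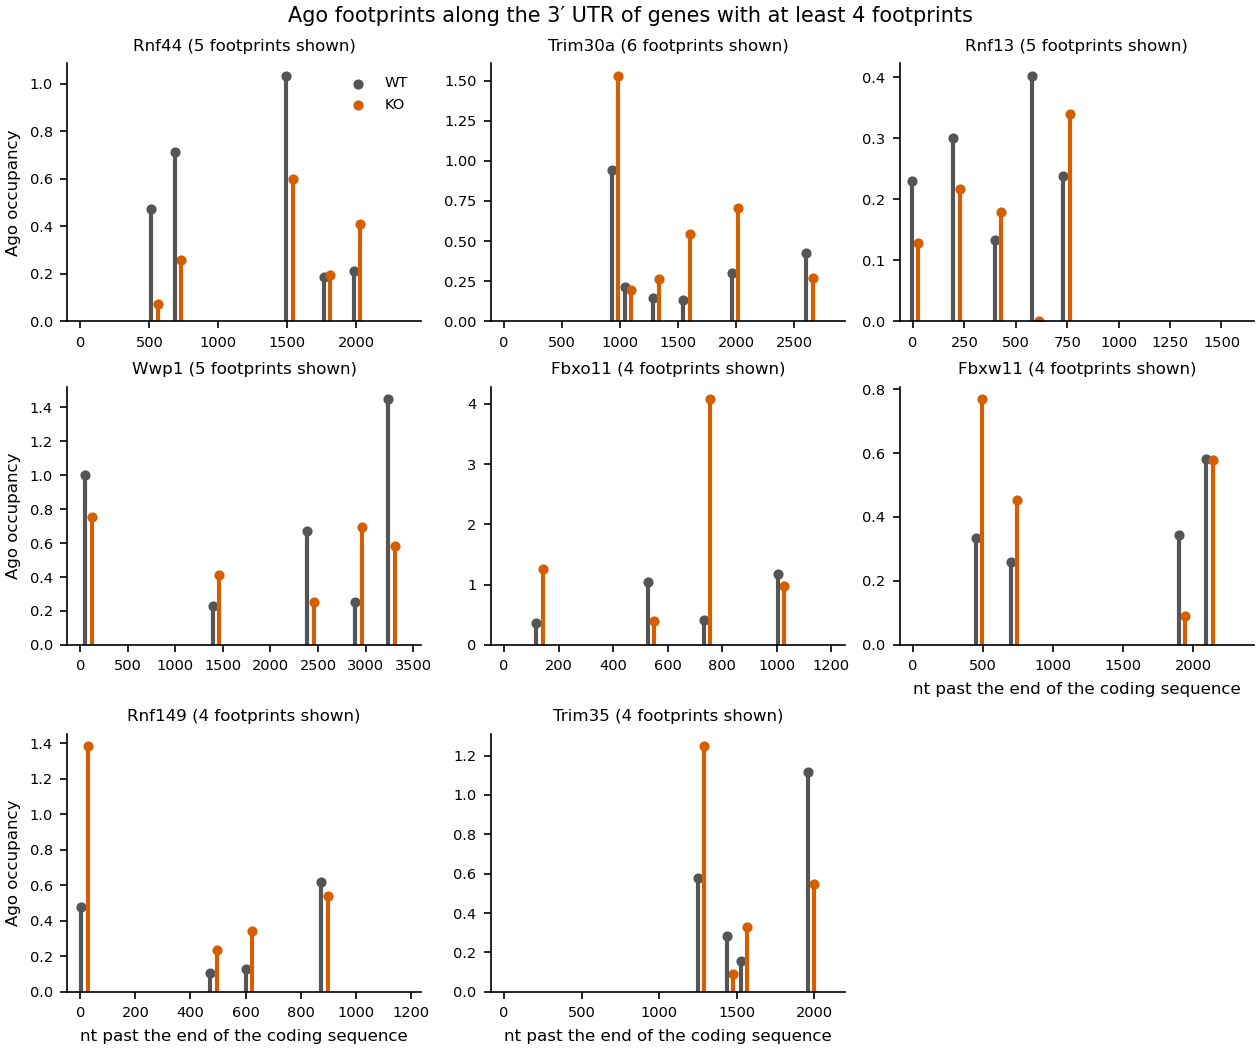
Ago occupancy of WT (grey) and KO (orange) along the 3′ UTR, in nt past the end of the coding sequence, for 8 genes with at least 4 footprints. Each pair of stems is 1 footprint, drawn slightly left (WT) and right (KO) of its centre, and the 3 coding footprints of Rnf44 are not drawn. Pairs with KO above WT stand beside pairs with WT above KO in each of the 8 genes.

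Base composition moved with the ratio. All footprints were split into 3 groups of about equal size at G+C contents of 38.6% and 47.3%. In the low group the 45 members had a median log2 ratio of -0.53 (-0.53 over all footprints), in the middle group the 44 members had -0.13 (-0.03) and in the high group the 42 members had 0.21 (0.42). At least 2 KO libraries held 15.6% of members in the low group and 47.6% in the high group, beside 27.3% and 53.2% of all footprints. Of the 9 members listed at 0 in KO, 6 lay in the low group (66.7%; 63.4% of all footprints listed at 0). The part that base composition or the number of KO libraries had in any ratio above was not tested.

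**Figure D5:**
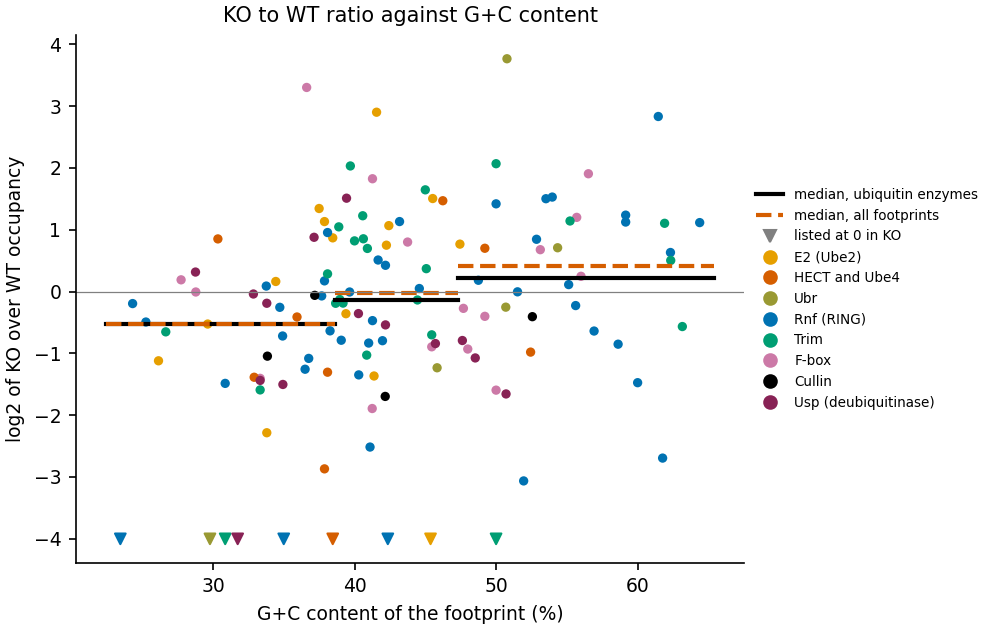
Log2 of KO over WT occupancy against G+C content in percent for the 131 footprints, coloured by family, with the 9 listed at 0 in KO as triangles at the bottom, without a value. The solid lines are medians of the ubiquitin enzymes in each of the 3 G+C groups, at -0.53, -0.13 and 0.21, and the dashed lines those of all footprints.

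Seed matches were counted for 26 miRNA families. A 7-nt match to any of them was present in 29 of the 131 footprints (22.1%; 19.8% of all footprints), on 22 genes and for 19 families. In windows of equal length, 100 nt upstream and 100 nt downstream, 21 and 15 of the 131 held a match, beside 1023 and 1001 of all 6270. An 8-nt match was present in 9 (6.87%; 7.88% of all). The most frequent families were miR-19, miR-21, miR-130 and miR-148, with 3 footprints each (2.29%). Over all footprints their shares were 1.00%, 0.431%, 1.02% and 1.18%. miR-15, the most frequent family in the whole table (1.99%), had 1. The 29 footprints with a match had a median log2 ratio of -0.06 and the 102 without had -0.19, and at least 2 KO libraries held 27.6% and 29.4% of them. The AU-rich word ATTTA was present in 16 members (12.2%; 11.9% of all) and the Pumilio motif TGTANATA in 7 (5.34%; 3.81% of all), each read on the strand of the gene only.

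Other genes of the ubiquitin system, outside the names above, carried footprints about as often. Of 139 annotated genes listed, 31 (22.3%) carried 62 footprints, 11 genes were higher and 20 lower in KO, and 5 and 7 were past 2-fold. Of all genes, 47.8% were higher in KO by sum, 11.7% at least 2-fold higher and 17.9% at least 2-fold lower. Among the E3 ligases, 7 of 21 were higher, with the giant HECT ligase Huwe1 at 2.73 in KO and 0.401 in WT (3 KO and 2 WT libraries) and the cullin partner Rbx1 at 0.736 and 0.214. The membrane ligase March6 had 0.507 in KO and 1.82 in WT, and Herc1 was listed at 0 in KO. Xiap, an inhibitor of cell death, carried 12 footprints with sums of 7.42 and 8.02, and Mdm2, the ligase of p53, 7 with 4.27 and 4.21. Both of the 2 other deubiquitinases were higher in KO, unlike most Usp footprints. Otub1 had 0.518 in KO and 0.0388 in WT, and Atxn3 had 0.941 and 0.499. Of 4 proteasome genes, Psmd11 was higher (0.607 and 0.289), and Psmc2, Psmd3 and Psma1 were lower, each by at least 2-fold. The E1 gene Uba1 had 0.0586 in KO and 0.104 in WT.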

How the data were processed

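Per the series design text, the authors aligned mRNA reads of at least 25 nt to mm9, joined overlapping reads into clusters of at least 8 reads and took a footprint around each cluster's peak. The submitters' processing notes name Bowtie 0.12.8 and bedtools. The deposited Ago occupancy is a ratio of footprint signal to RNA-Seq transcript level, 1 value per genotype. How the 3 libraries were combined, the handling of library size and the handling of reads that align to several places were not given in the sources used here. Also deposited by the authors is the number of WT and KO libraries that held each footprint. The table holds no read counts, so depth is unknown. Footprints enter through at least 2 libraries of 1 genotype.

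Footprints were placed on NCBIM37 (the assembly of mm9) with GENCODE vM1, using the strand in the footprint identifier, 3′ UTR taking precedence over coding sequence, then 5′ UTR, exon and intron. Log2 ratios used a pseudocount of 0.00161 (50% of the lowest nonzero value) and understate differences of low footprints. No fold is given for a value listed at 0. Sequences were read with pysam 0.24.0 and samtools 1.23.1. Distances run from the end of the annotated coding sequence, the stop codon counted with the UTR. At least 1 mature sequence of each of 26 miRNA families was found in RefSeq, 56 in all, and members of a family share bases 2 to 8. Only the ratio formula, the seed search and the placing by class were checked, on planted cases without noise.

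Named footprints were the 10 of highest mean occupancy, the 8 highest and 8 lowest ratios above 0 at or above the table median, those in all 6 libraries or listed at 0 in KO, genes of at least 4 footprints, Rnf128 and Usp25, and the highest of each family. Others were named after their values were seen, to show each family. Members and lists were chosen with earlier results of these data known. One gene that fits the names was left out of the members, and some genes are not reported here. The labels speak of 3 pairs of littermates and do not tie library numbers to litters, and the separate libraries were not analysed here.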

Additional observations from a re-analysis of the deposited data

How the results depend on the processing

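No paired analysis was possible because the table gives 1 combined value per genotype, and for the same reason no library could be left out in turn. The 131 footprints had a median log2 ratio of -0.19. It was closer to 0 with a pseudocount of 1 (-0.065), above 0 in both genotypes (-0.067) and by strongest footprint per gene (-0.072), and stayed at -0.19 at or above the table median of mean occupancy, in 3′ UTRs alone, by sum per gene and without Rnf44. It turned to 0.84 among footprints held by at least 2 libraries of both genotypes and to 0.21 in the group of highest G+C content, and was -0.53 in that of lowest. The count at least 2-fold higher in KO went from 27 to 2 with a pseudocount of 1, to 13 at or above the table median and to 13 with at least 2 libraries of both genotypes. The count at least 2-fold lower went from 35 to 2, 16 and 0 under the same settings. Genes at least 2-fold higher by sum went from 7 to 1 with a pseudocount of 1, 11 by strongest footprint and 4 at or above the table median. Genes at least 2-fold lower went from 12 to 1, 16 and 8 under the same settings. The pseudocount of 1 shrinks each ratio, as most occupancies lie below it, and left 4 of the 43 named ratios that were past 2-fold still past it, without turning any. Among genes with at least 4 footprints, the sums of Fbxw11 (0.31) and Rnf13 (-0.59) turned to -0.0078 and 0.51 by strongest footprint. With other limits, 86 members were held by at least 1 KO library, 8 by all 3 and 122 had KO occupancy above 0, and 14 were held by all 3 WT libraries. A 6-nt seed match was present in 70 members, an 8-nt match in 9, and a 7-nt match in 15 downstream windows. The cause of these differences was not tested. Accepting names without a digit after the prefix changed no member.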

Other observations

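Several KO values were shared exactly by footprints of different genes. Of the 122 members above 0 in KO, 59 (48.4%) had a KO value that another footprint of the table also had, beside 33.3% of all footprints above 0 in KO. For WT the shares were 30.5% and 18.6%. Among the ubiquitin enzymes, Ube2g1 and Usp1 both had 0.183, Ube3a and Cul4b both had 0.259, Ube2d3 and Cul1 both had 0.333, Fbxo33 and Trim41 both had 0.471, and Trim44 and Usp15 both had 0.661. Of these 10 footprints, 6 were held by no KO library. How equal values arose for footprints of different genes was not given in the sources used here.

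No KO library held 36 of the members whose KO value was above 0. Their median KO occupancy was 0.257. In the whole table there were 1462 such footprints, with a median of 0.196.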
